A study of Mus musculus with 8 samples.

Results

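The 37 genes described here encode enzymes that make, salvage and balance nucleotides, together with the folate enzymes that supply single carbon units to them. They were listed by name from what these enzymes do, and earlier results of these data were known when the list was made. Of the 37, 36 matched a row of the 41214 genes in the count files, and all 36 were among the 16456 genes with enough counts to be tested. The one without a match was Pnp, the purine nucleoside phosphorylase. The RNA came from 8 spleen tumours of C57Bl6 mice, 1 mouse per library: 2 B cell tumours with wild-type Miz1 (B wt), 2 B cell tumours with Miz1 deltaPOZ (B deltaPOZ), 2 CD4+ T cell tumours with wild-type Miz1 (T wt) and 2 CD4+ T cell tumours with Miz1 deltaPOZ (T deltaPOZ). Zbtb17 encodes Miz1, a partner of Myc that contacts DNA through zinc fingers, and the POZ domain lets it form oligomers and associate with chromatin. The labels give no promoter, Cre line, agent or age for these mice. The deposited names of all T libraries carry the tag Notch, those of T deltaPOZ also carry the tag ENU, and B and T libraries carry different run tags. Lineage therefore cannot be told apart from run or from the Notch tag, nor genotype from the ENU tag within T.

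A purine ring is assembled stepwise on phosphoribosyl pyrophosphate and ends in IMP, from which AMP and GMP are made, whereas a pyrimidine ring is made first and attached to the sugar afterwards. Salvage enzymes return free bases and nucleosides to nucleotides, and ribonucleotide reductase, thymidylate synthase and the nucleoside kinases turn ribonucleotides and nucleosides into the precursors of DNA. Lymphocytes depend strongly on these routes: loss of adenosine deaminase or purine nucleoside phosphorylase causes immune deficiency, and antifolates and nucleoside analogues are drugs for lymphoid leukaemia. Many of the genes are textbook targets of Myc, which binds the E-box CACGTG with its partner Max, and others follow E2F in the cell cycle.

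Reads counted to genes ranged from 44330101 to 58271208 per library, so that 3 counts, taken as the lowest detectable level, correspond to 0.0515 to 0.0677 CPM (counts per library scaled to the same total). Every one of the 36 genes lay far above this in every library, with a lowest count of 686. The marker genes of the labelled lineage were present in all libraries: 6 B cell markers summed to 1448 to 2335 CPM in B tumours and 16.9 to 97.7 CPM in T tumours, and 7 T cell markers to 16.6 to 51.9 CPM in B tumours and 1734 to 2710 CPM in T tumours. Erythroid markers (10 genes) summed to 720 to 2143 CPM in B tumours and to 5946 and 27253 CPM in T wt and 9731 and 15162 CPM in T deltaPOZ, with 1 of them at 0 in at least 1 library. In bulk tumour RNA, fewer cells of a type and less RNA per cell cannot be told apart. Zbtb17 itself, counted over the whole gene, gave 66.1 and 47.99 CPM for the wt B tumours, 49.4 and 59.1 for the deltaPOZ B tumours, 49.6 and 42.3 for the wt T tumours and 40.1 and 36.9 for the deltaPOZ T tumours. Its deltaPOZ fold change did not pass the test in B (adjusted p = 0.926, edgeR) or T (adjusted p = 1, edgeR). A count over the gene does not report the deleted domain separately, so it does not check the genotype labels.

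The promoter windows of RefSeq (GRCm38.p6, 250 bases before to 50 bases after a gene's start) were available for 35 of the 37 genes, and are shown first for the genes that hold an E-box. The letters CACGTG, which read the same on both strands, occurred in 6 of the 35 (17.1%), against 8.09% of 27025 genes with a window and 11.3% of the 11326 of them that were tested here. These are the stretches with 12 bases on each side, 5′ to 3′ on the gene's strand, with the E-box in capitals. Nme1 has a pair because RefSeq lists more than one start for it.
Atic, chr1:71557137-71557166, plus strand: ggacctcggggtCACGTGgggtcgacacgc
Dtymk, chr1:93802065-93802094, minus strand: gtctcgaacttcCACGTGaccagagcctgc
Impdh2, chr9:108560314-108560343, plus strand: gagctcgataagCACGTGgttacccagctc
Nme1, chr11:93968273-93968302, minus strand: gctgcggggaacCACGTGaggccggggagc
Nme1, chr11:93968037-93968066, minus strand: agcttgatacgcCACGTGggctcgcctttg
Paics, chr5:76951087-76951116, plus strand: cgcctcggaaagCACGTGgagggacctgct
Tyms, chr5:30073669-30073698, minus strand: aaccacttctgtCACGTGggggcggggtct

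The GC box GGGCGG or its reverse complement CCGCCC was found in 28 of the 35 windows (80%), against 38.2% of all genes with a window and 65.4% of the tested ones. The CCAAT box (CCAAT or ATTGG) was found in 15 (42.9%), against 41.1% and 42.5%, and the E2F letters TTTCCCGC or GCGGGAAA in 2 (5.71%, Ppat and Prps2), against 1.24% and 2.26%. A match of letters is a description of the window and not evidence of binding, and GC-rich promoters are common to housekeeping genes. The 150 bases before the start are given for Aprt and for Rrm2, of which Aprt had the highest deltaPOZ fold change of the 36 genes in B tumours and Rrm2 the lowest among the DNA precursor enzymes, with GC boxes and the CCAAT box of either strand in capitals.
Aprt, chr8:122576908-122577057, minus strand: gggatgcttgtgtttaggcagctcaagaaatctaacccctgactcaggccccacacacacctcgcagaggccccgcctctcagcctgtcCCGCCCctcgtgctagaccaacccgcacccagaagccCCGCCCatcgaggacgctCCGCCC
Rrm2, chr12:24708104-24708253, plus strand: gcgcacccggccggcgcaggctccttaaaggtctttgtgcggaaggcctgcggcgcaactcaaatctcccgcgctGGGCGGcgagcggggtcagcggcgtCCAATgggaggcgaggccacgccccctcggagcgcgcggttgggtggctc
The Aprt stretch holds 3 GC boxes and no CCAAT box, and the Rrm2 stretch holds 1 GC box and 1 CCAAT box.

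Between lineages, most of the genes that differed were lower in T tumours than in B tumours. Of the 36 genes, 20 were lower and 1 was higher in T by edgeR's quasi-likelihood test at an adjusted p under 0.05, with Benjamini-Hochberg adjustment over all tested genes. Over all tested genes, 16% were called lower and 19.3% higher in T. The median log2 fold change (T over B, mean of both genotypes) was -0.80 for the 36 genes and 0.05 for all tested genes. For 16 of the 36, all 4 T libraries lay below all 4 B libraries, a separation seen in 17% of tested genes, and for Impdh1 all 4 lay above. The summed level of the 36 genes was 7523 and 8321 CPM in the wt and 9361 and 9598 CPM in the deltaPOZ B tumours, against 4739 and 6152 CPM in the wt and 6654 and 6187 CPM in the deltaPOZ T tumours, so that every T library was below every B library, at a ratio of T to B means of 0.682.

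**Figure D1:**
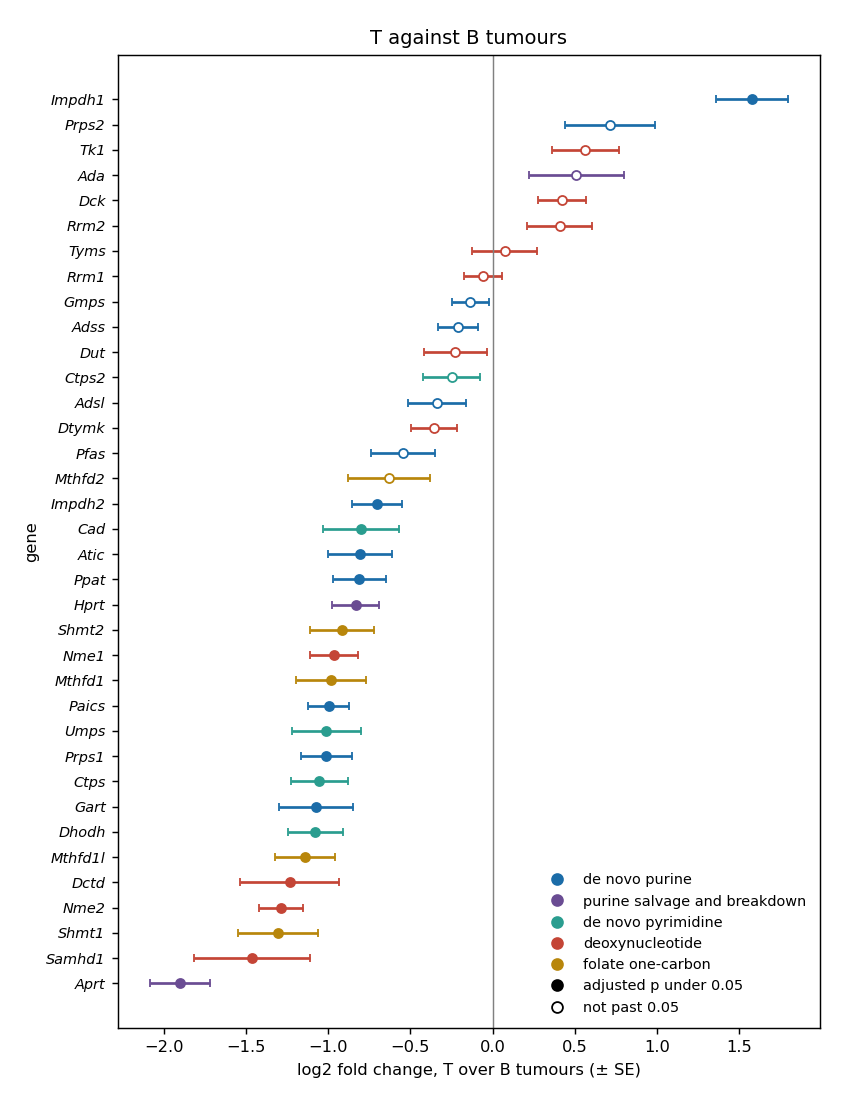
Log2 fold change of T over B tumours for each of the 36 genes, with its standard error as bars, coloured by role; filled points have an adjusted p under 0.05. The 20 filled points left of 0 run from Impdh2 to Aprt, and Impdh1 is the 1 filled point to the right.

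By role, the ratio of summed T to B levels ranged from 0.492 to 0.886. Folate one-carbon enzymes had the lowest, 0.492, with 4 of 5 lower in T, and purine salvage had 0.507, with 2 of 3 lower. De novo pyrimidine enzymes followed at 0.533, with 4 of 5 lower, and de novo purine enzymes at 0.691, with 6 of 12 lower and 1 higher. Enzymes of deoxynucleotide supply were closest to level at 0.886, with 4 of 11 lower. These ratios weight each gene by its count, and the median log2 fold changes gave -0.98, -0.83, -1.01, -0.62 and -0.23 in the same order. Whether the roles differ from each other was not tested.

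**Figure D2:**
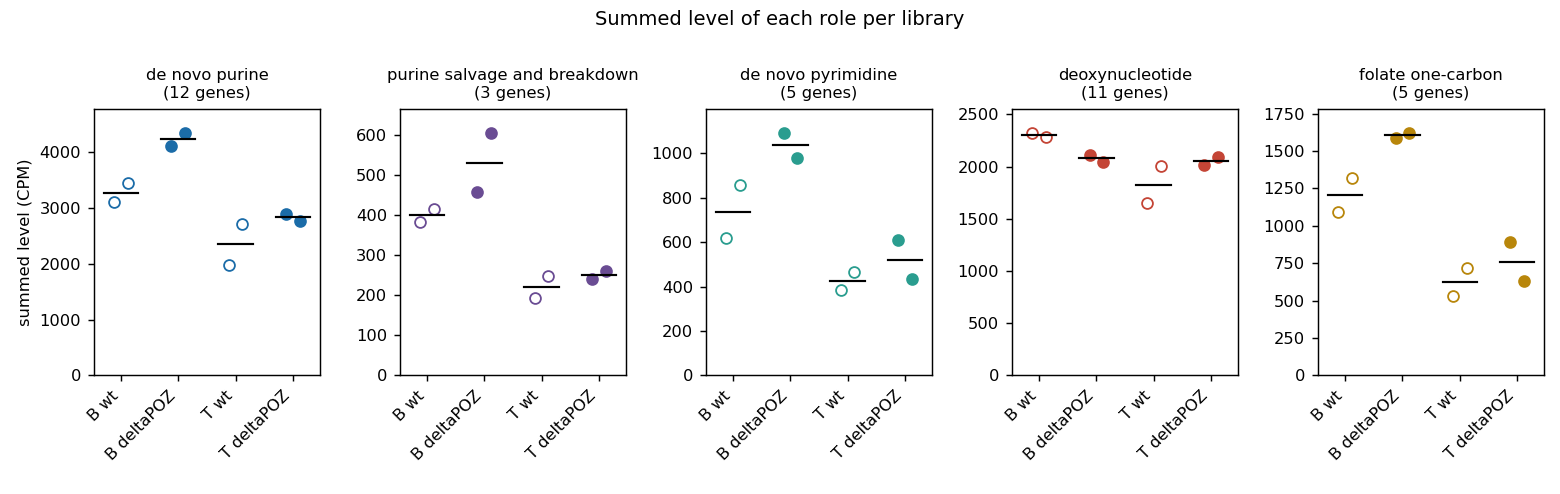
Summed CPM of the tested genes of each role in each library; open circles are wt, filled circles deltaPOZ, and black lines the means of 2 libraries. The one-carbon sums reach 1095 to 1621 CPM in B tumours and 529 to 889 CPM in T tumours, while the deoxynucleotide sums reach 2046 to 2322 CPM and 1650 to 2088 CPM.

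Aprt, which joins free adenine to phosphoribosyl pyrophosphate, showed the largest fold between lineages among the 36 genes. It measured 73.7 and 100.1 CPM in the B wt pair against 172 and 215 in the B deltaPOZ pair, and 27.1 and 36.03 in the T wt pair against 42.3 and 34.1 in the T deltaPOZ pair. Its level was 3.73-fold lower in T (log2 -1.90 ± 0.18 SE, adjusted p = 0.000997, edgeR), and the highest T library was well under the lowest B library. Nme2, a nucleoside diphosphate kinase, gave 99.5 and 127 CPM for the wt B tumours, 134 and 159 for the deltaPOZ B tumours, 47.01 and 47.8 for the wt T tumours and 60.1 and 57.05 for the deltaPOZ T tumours. It was 2.44-fold lower in T (log2 -1.29 ± 0.13 SE, adjusted p = 0.00128, edgeR), again without overlap. Shmt1, the cytosolic serine hydroxymethyltransferase that moves a carbon from serine to tetrahydrofolate, measured 155 and 264 CPM in the B wt pair against 302 and 285 in the B deltaPOZ pair, and 60.3 and 101 in the T wt pair against 143 and 107 in the T deltaPOZ pair. All 4 T libraries lay below all 4 B libraries (log2 -1.31 ± 0.24 SE, adjusted p = 0.00802, edgeR). Shmt1 overlaps Smcr8 on the opposite strand by 184 bases.

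Samhd1, the triphosphohydrolase that degrades deoxynucleoside triphosphates and also hydrolyses the active form of cytarabine, gave 172 and 93.7 CPM for the wt B tumours, 182 and 66.5 for the deltaPOZ B tumours, 52.3 and 40.8 for the wt T tumours and 50.5 and 42.6 for the deltaPOZ T tumours. Its T libraries were close together and below every B library, but its B libraries were spread within each genotype. The fold was 2.76 lower in T (log2 -1.47 ± 0.35 SE, adjusted p = 0.0194, edgeR), and the call was lost without B wt 1, or without any single T library, at log2 fold changes of -1.21 to -1.56. Dctd, the dCMP deaminase, measured 22.8 and 48.5 CPM in the B wt pair against 52.3 and 53.7 in the B deltaPOZ pair, and 12.98 and 16.9 in the T wt pair against 29.2 and 16.4 in the T deltaPOZ pair. It was called lower in T (log2 -1.24 ± 0.30 SE, adjusted p = 0.0205, edgeR), although B wt 1 overlapped the T range and the call was lost without T wt 1 (log2 -1.14) or T deltaPOZ 2 (log2 -1.05).

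Impdh1 went the other way from its paralog. Both encode IMP dehydrogenase, the rate-limiting step from IMP to guanine nucleotides, with Impdh2 known as the form that proliferating cells induce. Impdh1 gave 49.7 and 42.2 CPM for the wt B tumours, 33.2 and 30.3 for the deltaPOZ B tumours, 110.3 and 155 for the wt T tumours and 125 and 71.5 for the deltaPOZ T tumours. It was 2.98-fold higher in T (log2 1.58 ± 0.22 SE, adjusted p = 0.00309, edgeR), with no overlap of the lineages. Impdh2 itself measured 289 and 328 CPM in the B wt pair against 423 and 420.2 in the B deltaPOZ pair, and 160.0 and 223 in the T wt pair against 282 and 231 in the T deltaPOZ pair. Its T level was lower (log2 -0.70 ± 0.15 SE, adjusted p = 0.0127, edgeR). Per kilobase of exon, Impdh2 exceeded Impdh1 in every library, by the ratio of Impdh1 to Impdh2 of 0.161 and 0.120 in wt and 0.0732 and 0.0673 in deltaPOZ B tumours, against 0.644 and 0.647 in wt and 0.413 and 0.289 in deltaPOZ T tumours. Within each lineage the deltaPOZ ratios were below the wt ratios.

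Prps1 and Prps2, both on the X chromosome, encode phosphoribosyl pyrophosphate synthetases. Prps1 gave 93.99 and 119 CPM for the wt B tumours, 119 and 126 for the deltaPOZ B tumours, 45.8 and 63.02 for the wt T tumours and 56.1 and 61.99 for the deltaPOZ T tumours. T tumours were lower (log2 -1.01 ± 0.16 SE, adjusted p = 0.00438, edgeR). Prps2 measured 204 and 175 CPM in the B wt pair against 205 and 222 in the B deltaPOZ pair, and 217 and 425 in the T wt pair against 238 and 443 in the T deltaPOZ pair. The T minus B difference did not pass (log2 0.72 ± 0.27 SE, adjusted p = 0.0829, edgeR). Per kilobase the ratio of Prps1 to Prps2 was 0.897 to 1.33 in B tumours and 0.272 to 0.458 in T tumours. Prps2 was high in T wt 2 and T deltaPOZ 2, the same libraries that had the highest erythroid marker sums among the T tumours (27253 and 15162 CPM), and Rrm2, Tyms and Ada had their highest T values in the same pair. The part of erythroid cells in these levels was not tested.

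**Figure D3:**
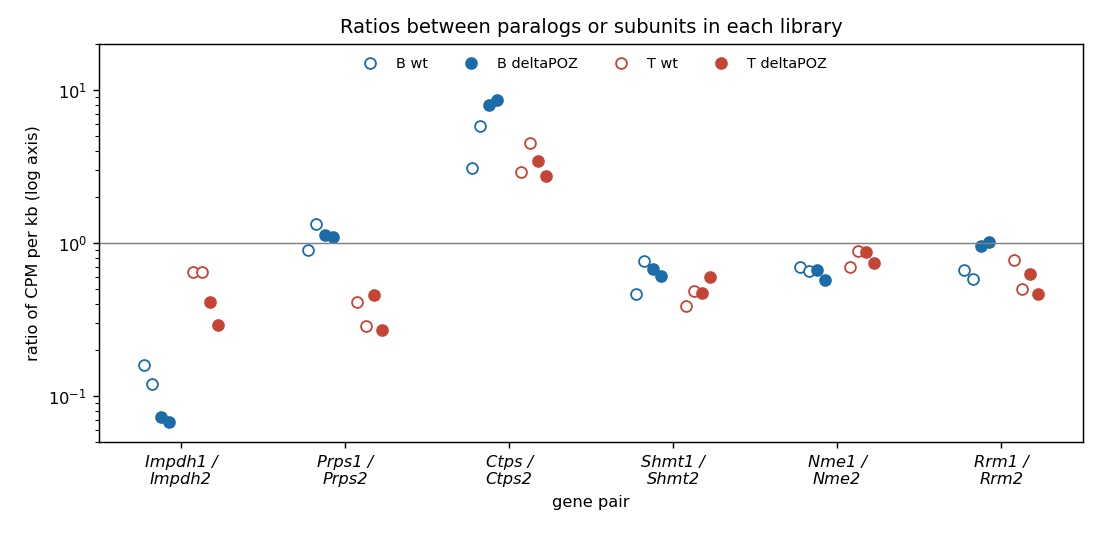
Ratio of CPM per kilobase of exon between paralogs (Impdh, Prps, Ctps, Shmt, Nme) or subunits (Rrm1 and Rrm2) in each library, on a log axis; blue is B, red is T, open is wt and filled is deltaPOZ. Impdh1 over Impdh2 lies between 0.0673 and 0.161 in B tumours and between 0.289 and 0.647 in T tumours, and Prps1 over Prps2 between 0.897 and 1.33 and between 0.272 and 0.458.

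The other de novo purine enzymes follow in pathway order. Ppat, the amidotransferase that commits the pathway, gave 189 and 273 CPM for the wt B tumours, 344 and 349 for the deltaPOZ B tumours, 121 and 159.8 for the wt T tumours and 192 and 179 for the deltaPOZ T tumours. Gart, which carries several of the early reactions on one protein, measured 386 and 485 CPM in the B wt pair against 589.5 and 892 in the B deltaPOZ pair, and 178 and 284 in the T wt pair against 359 and 268 in the T deltaPOZ pair. Both were lower in T, with log2 fold changes of -0.81 ± 0.16 SE (adjusted p = 0.0103, edgeR) and -1.08 ± 0.22 SE (adjusted p = 0.0118, edgeR). Pfas, the formylglycinamidine synthase, gave 233 and 313 CPM for the wt B tumours, 512 and 442 for the deltaPOZ B tumours, 199.9 and 258 for the wt T tumours and 326 and 209 for the deltaPOZ T tumours. Its lineage difference did not pass (log2 -0.55 ± 0.19 SE, adjusted p = 0.0677, edgeR). Paics, which performs the carboxylation and the step after it, measured 693 and 641 CPM in the B wt pair against 657 and 633 in the B deltaPOZ pair, and 258 and 326 in the T wt pair against 351 and 388 in the T deltaPOZ pair. Its T libraries were all below its B libraries (log2 -0.997 ± 0.13 SE, adjusted p = 0.00216, edgeR). Ppat and Paics lie head to head on chromosome 5 and overlap by 272 bases on opposite strands, so reads in the overlap depend on a strand setting that is not given in the sources used here.

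Adsl, the lyase used both before IMP and on the way to AMP, gave 119 and 162 CPM for the wt B tumours, 229 and 224 for the deltaPOZ B tumours, 100.4 and 140.0 for the wt T tumours and 189 and 142 for the deltaPOZ T tumours. It did not pass between lineages (log2 -0.34 ± 0.18 SE). Atic, which closes the purine ring with a formyl group from folate, measured 286 and 417 CPM in the B wt pair against 466 and 443 in the B deltaPOZ pair, and 156 and 237 in the T wt pair against 294 and 235 in the T deltaPOZ pair. The lineage difference passed, lower in T (log2 -0.81 ± 0.20 SE, adjusted p = 0.0197, edgeR). Of the synthases on the branches after IMP, Gmps, the GMP synthetase, ranged from 232 to 295 CPM in B and 209 to 297 CPM in T, and Adss, the adenylosuccinate synthase, from 242 to 317 and 216 to 249 CPM. Neither passed (log2 -0.14 ± 0.11 and -0.21 ± 0.12 SE).

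Hprt, the X-linked salvage enzyme for hypoxanthine and guanine, had the highest mean level per kilobase of the 36 genes in both lineages, 230.8 CPM per kb in B and 129 CPM per kb in T. It gave 278 and 269 CPM for the wt B tumours, 269 and 375 for the deltaPOZ B tumours, 144 and 167 for the wt T tumours and 172 and 185 for the deltaPOZ T tumours. It was lower in T (log2 -0.83 ± 0.14 SE, adjusted p = 0.00612, edgeR). At the other end stood Dhodh, with means of 9.68 and 4.47 CPM per kb. Ada, which deaminates adenosine and deoxyadenosine, measured 30.8 and 46.9 CPM in the B wt pair against 15.6 and 13.7 in the B deltaPOZ pair, and 22.1 and 45.7 in the T wt pair against 26.7 and 41.3 in the T deltaPOZ pair. It overlapped between lineages and did not pass (log2 0.51 ± 0.29 SE, adjusted p = 0.213, edgeR). For Pnp no value can be given. Another row of the count files, named Gm49342 in GENCODE M21 and spanning chr14:50944517-50963136 across the Pnp locus, held 84.7 and 327 CPM for wt and 65.8 and 116 CPM for deltaPOZ B tumours, with 62.1 and 137 CPM for wt and 98.9 and 94.7 CPM for deltaPOZ T tumours, and how much of it is Pnp is not known.

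Among the pyrimidine enzymes, Cad holds the opening activities on one protein and Dhodh is the mitochondrial dehydrogenase that feeds electrons into the respiratory chain. Cad gave 184 and 288 CPM for the wt B tumours, 357 and 355 for the deltaPOZ B tumours, 143 and 161 for the wt T tumours and 236 and 129.5 for the deltaPOZ T tumours. Dhodh measured 37.4 and 55.6 CPM in the B wt pair against 74.4 and 77.6 in the B deltaPOZ pair, and 23.2 and 27.7 in the T wt pair against 31.7 and 30.6 in the T deltaPOZ pair. Umps, which makes UMP, gave 149 and 246 CPM for the wt B tumours, 272 and 217 for the deltaPOZ B tumours, 81.9 and 109 for the wt T tumours and 139 and 109 for the deltaPOZ T tumours. All of them were lower in T, by log2 -0.80 ± 0.23, -1.08 ± 0.17 and -1.01 ± 0.21 SE (adjusted p = 0.0355, 0.00458 and 0.0116, edgeR). The CTP synthases are Ctps and Ctps2. Ctps measured 168 and 214 CPM in the B wt pair against 328 and 282 in the B deltaPOZ pair, and 92.03 and 126 in the T wt pair against 141 and 107 in the T deltaPOZ pair. Its T level was lower (log2 -1.05 ± 0.17 SE, adjusted p = 0.00516, edgeR). Ctps2, on the X chromosome, gave 77.95 and 52.2 CPM for the wt B tumours, 58.98 and 46.9 for the deltaPOZ B tumours, 45.2 and 39.6 for the wt T tumours and 58.8 and 56.2 for the deltaPOZ T tumours. It did not pass (log2 -0.25 ± 0.17 SE, adjusted p = 0.3, edgeR). Whether the lineage differences of Ctps and Ctps2 differ from each other was not tested.

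The reductase subunits and thymidylate enzymes did not pass between lineages. Rrm1, the large subunit, ranged from 558 to 773 CPM in B and 596 to 655 CPM in T (log2 -0.057 ± 0.12 SE). Rrm2, the small subunit made in S phase, measured 291 and 294 CPM in the B wt pair against 169.7 and 139 in the B deltaPOZ pair, and 193 and 328 in the T wt pair against 263 and 346 in the T deltaPOZ pair (log2 0.41 ± 0.20 SE). Tyms, which makes dTMP from dUMP and folate, gave 98.1 and 110.3 CPM for the wt B tumours, 116 and 85.4 for the deltaPOZ B tumours, 74.1 and 121 for the wt T tumours and 106 and 132 for the deltaPOZ T tumours (log2 0.073 ± 0.20 SE). In both, T wt 1 was the lowest T library. Tk1, the cytosolic thymidine kinase, measured 104 and 71.5 CPM in the B wt pair against 54.1 and 86.2 in the B deltaPOZ pair, and 92.8 and 114 in the T wt pair against 132 and 128 in the T deltaPOZ pair (log2 0.56 ± 0.20 SE). Dtymk, the thymidylate kinase, ranged from 133 to 173 CPM in B and 91.2 to 135 CPM in T (log2 -0.35 ± 0.14 SE). Dck, the deoxycytidine kinase, ranged from 99.97 to 209 CPM in B and 189 to 218 CPM in T (log2 0.42 ± 0.14 SE, adjusted p = 0.0601, edgeR). None of them separated the lineages. Dut, which clears dUTP, ranged from 221 to 367 CPM in B and 198 to 266 CPM in T (log2 -0.23 ± 0.19 SE). Nme1, the partner of Nme2, gave 198 and 236 CPM for the wt B tumours, 253 and 259 for the deltaPOZ B tumours, 93.9 and 122 for the wt T tumours and 151 and 119.6 for the deltaPOZ T tumours. T tumours were lower (log2 -0.96 ± 0.15 SE, adjusted p = 0.00424, edgeR). Nme1 and Nme2 both lie within the readthrough gene Gm20390, which itself held a mean of 0.345 CPM, and their similar sequences make the split of reads between them uncertain. Proliferation markers (15 genes) summed to 6937 to 8470 CPM in B tumours and 7563 to 9330 CPM in T tumours. By edgeR, 1 of them (Mki67) was called higher and none lower in T, against 19.3% and 16% of tested genes. By direction alone, 2 of the 15 stood above 0 and 13 below, with a median log2 fold change of -0.17.

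The mitochondrial arm of one-carbon metabolism runs through Shmt2, Mthfd2 and Mthfd1l, and the cytosolic arm through Shmt1 and the trifunctional Mthfd1. Shmt2 measured 265 and 278 CPM in the B wt pair against 360.3 and 374 in the B deltaPOZ pair, and 125 and 167 in the T wt pair against 241 and 143 in the T deltaPOZ pair. Mthfd1 gave 347 and 381 CPM for the wt B tumours, 401 and 395 for the deltaPOZ B tumours, 116 and 226 for the wt T tumours and 235 and 199 for the deltaPOZ T tumours. Mthfd1l, which releases formate from mitochondria, measured 259 and 279.9 CPM in the B wt pair against 346 and 413 in the B deltaPOZ pair, and 168 and 127 in the T wt pair against 173 and 112 in the T deltaPOZ pair. All of them were lower in T without overlap (log2 -0.92 ± 0.19, -0.98 ± 0.21 and -1.14 ± 0.18 SE, adjusted p = 0.0122, 0.0137 and 0.00491, edgeR). Mthfd2, the dehydrogenase and cyclohydrolase of dividing cells, gave 68.4 and 120.5 CPM for the wt B tumours, 178 and 155 for the deltaPOZ B tumours, 58.5 and 96.6 for the wt T tumours and 97.98 and 71.4 for the deltaPOZ T tumours. With B wt 1 inside the T range it did not pass (log2 -0.63 ± 0.25 SE, adjusted p = 0.0914, edgeR).

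The lineage count, in either direction, ranged from 15 to 21 with 1 library left out. Without T deltaPOZ 2 it was 15 of 36, against 21.1% of the genes tested in that fit, and without T wt 1 it was 18, against 22.1%. With B wt 2, T wt 1 and T deltaPOZ 2 left out together, which leaves 5 libraries, it was 2 of 36, against 7.9% of the genes tested there, with a median log2 fold change of -0.48. Myc measured 380.4 and 265 CPM in the B wt pair against 473 and 526 in the B deltaPOZ pair, and 125 and 83.2 in the T wt pair against 104 and 76.2 in the T deltaPOZ pair. It was 4.14-fold lower in T (log2 -2.05 ± 0.21 SE, adjusted p = 0.00117, edgeR), and its part in the lineage difference was not tested. Myc had the lowest value in a list of 7 tested regulators, of which 3 stood above 0 and 4 below, at -2.05 to 0.84. By edgeR, 1 of the 7 was called higher and 3 lower in T, against 19.3% and 16% of tested genes.

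The second comparison asks how deletion of the POZ domain of Miz1 goes with these genes within B tumours. Aprt, Pfas, Dhodh and the one-carbon enzymes stood higher in deltaPOZ, and Ada, Rrm2 and Dck stood lower, but none of these differences passed the adjusted threshold. By edgeR's quasi-likelihood test none of the 36 passed an adjusted p under 0.05 (smallest adjusted p = 0.231), where 0.00608% of tested genes did. At an unadjusted p under 0.05 there were 10 of the 36, 7 higher and 3 lower in deltaPOZ, against 12.1% of tested genes, and limma-voom called none. DESeq2 called 2, Aprt higher (adjusted p = 0.00575) and Ada lower (adjusted p = 0.0456), against 4.18% of tested genes. Without a filter on low counts, edgeR called 5 of the 36, against 4.79% of the genes then tested: Aprt, Gart and Pfas higher and Ada and Rrm2 lower.

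The log2 fold change was above 0 for 25 of the 36 genes, with a median of 0.27 against -0.01 over all tested genes. Both deltaPOZ libraries lay above both wt libraries for 20 genes, against 19.9% of tested genes, and below both for 5, against 19.1%. B wt 1 was the lowest of the 4 B libraries for 22 of the 36 genes. Without B wt 1, 27 of the 36 were above 0 with a median of 0.14 (0.02 over all tested genes). Without B wt 2, 26 were above 0 with a median of 0.46 (0.11 over all tested genes).

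**Figure D4:**
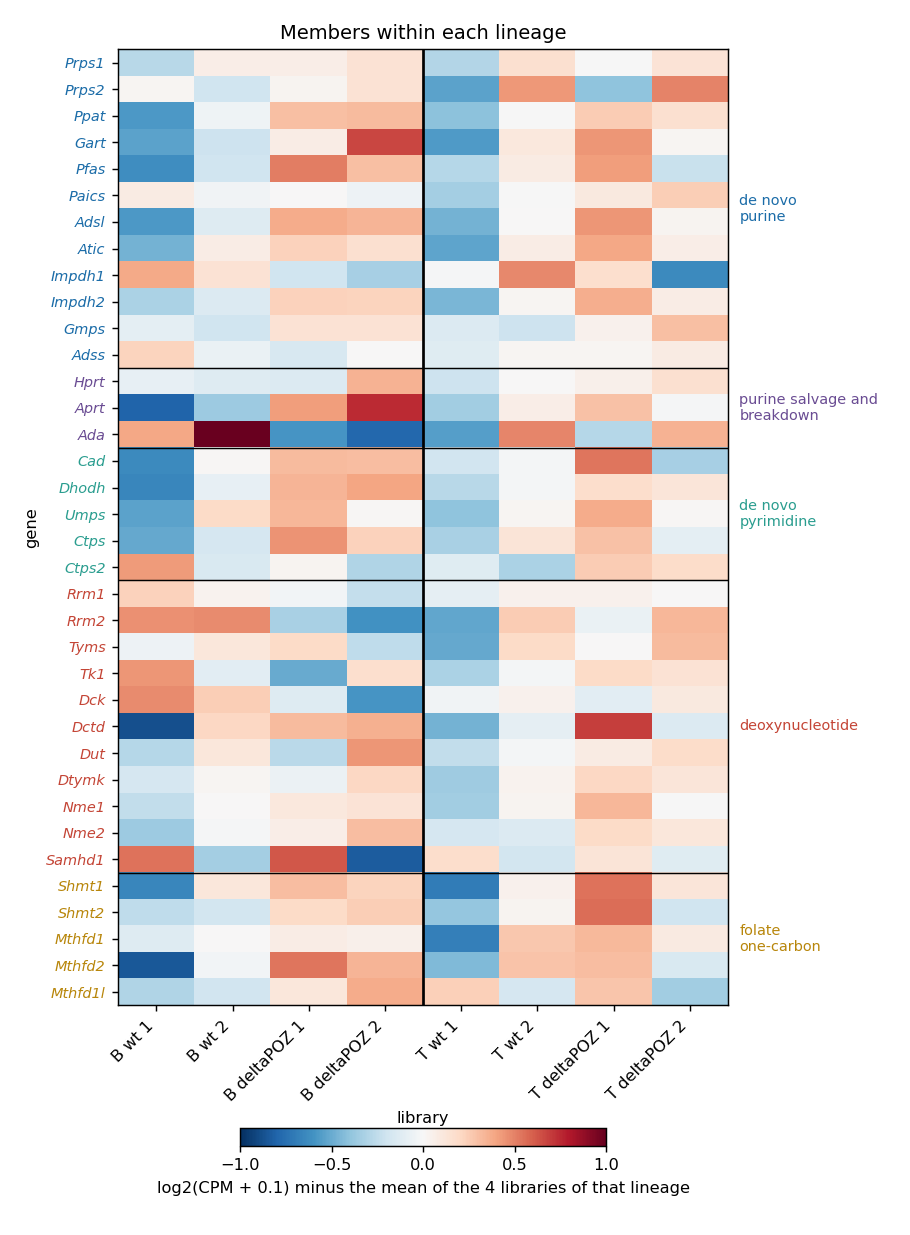
Level of each of the 36 genes in each library as log2(CPM + 0.1) minus the mean of the 4 libraries of its lineage, ordered by role; red is above and blue below that mean, and colours saturate at 1. Columns B wt 1 and T wt 1 are mostly blue: they hold the lowest of 4 values for 22 and 29 of the 36 genes.

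By role, all 5 one-carbon enzymes were higher in both deltaPOZ libraries than in both wt libraries (median log2 fold change 0.49), as were 8 of 12 de novo purine enzymes (median 0.33) and 3 of 5 de novo pyrimidine enzymes (median 0.59). For purine salvage and breakdown the median was 0.24, with 1 of 3 higher (Aprt) and 1 of 3 lower (Ada) without overlap. For deoxynucleotide enzymes the median was -0.048, with 3 of 11 higher and 3 of 11 lower without overlap. Over all tested genes, 19.9% were higher and 19.1% lower without overlap. The summed one-carbon level was 1095 and 1323 CPM in B wt and 1587 and 1621 CPM in B deltaPOZ, while the summed deoxynucleotide level was 2322 and 2279 CPM and 2112 and 2046 CPM. None of these differences between roles was tested.

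Aprt had the smallest p among the genes that stood higher. It measured 73.7 and 100.1 CPM in wt against 172 and 215 CPM in deltaPOZ, 2.23-fold higher (log2 1.16 ± 0.25 SE, adjusted p = 0.231, edgeR), with no overlap. Pfas was at 233 and 313 CPM against 512 and 442 CPM (log2 0.81 ± 0.28 SE, adjusted p = 0.354, edgeR). Dhodh was at 37.4 and 55.6 CPM against 74.4 and 77.6 CPM (log2 0.71 ± 0.24 SE, adjusted p = 0.344, edgeR). Their groups did not overlap either, and B wt 1 was the lower wt library for both. Gart, with 386 and 485 against 589.5 and 892 CPM, stood higher too (log2 0.77 ± 0.32 SE), and the median over the tested genes within 10 Mb of it was 0.31 in the same contrast. Ctps gave log2 0.67 ± 0.24 SE with neighbours at 0.32, Mthfd2 0.82 ± 0.35 SE with neighbours at 0.028, and Aprt's own neighbours were at 0.10. The part of the chromosomal region in these values was not tested.

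Ada, Rrm2 and Dck stood lower in B deltaPOZ. Ada was at 30.8 and 46.9 CPM in B wt and 15.6 and 13.7 CPM in B deltaPOZ, 2.65-fold lower (log2 -1.41 ± 0.42 SE, adjusted p = 0.31, edgeR). Myeloid markers (10 genes) summed to 177 and 1267 CPM in B wt and 261 and 103 CPM in B deltaPOZ, and the library with the highest sum, B wt 2, also had the highest Ada. Their part in the Ada level was not tested. Rrm2 was at 291 and 294 CPM against 169.7 and 139 CPM (log2 -0.92 ± 0.28 SE, adjusted p = 0.32, edgeR), with tight replicates in wt. The tested genes within 10 Mb of Ada and of Rrm2 both had a median log2 fold change of -0.33. Dck, the deoxycytidine kinase that performs the first activating step on cytarabine, was at 209 and 179 CPM in B wt and 138 and 99.97 CPM in B deltaPOZ (log2 -0.71 ± 0.21 SE, adjusted p = 0.301, edgeR), and its neighbours were at -0.039. The genotypes did not overlap for Ada, Rrm2 or Dck, but they did not pass the adjusted threshold. Per kilobase, the ratio of Rrm1 to Rrm2 was 0.669 and 0.579 in B wt and 0.957 and 1.01 in B deltaPOZ. Transcription factors of the cell cycle were measured beside them: E2f1 was at 18.6 and 20.97 CPM in B wt and 14.3 and 8.49 CPM in B deltaPOZ, and E2f8 at 41.2 and 46.9 and 29.3 and 21.4 CPM, neither past the test (adjusted p = 0.419 and 0.327, edgeR). They belong to a list of 7 tested regulators that also holds Myc. Of the 7, 2 stood above 0 and 5 below in B deltaPOZ, at log2 fold changes of -0.80 to 0.63. Without overlap, 1 was higher and 3 were lower. The proliferation markers summed to 8470 and 8332 CPM in B wt and to 8064 and 6937 CPM in B deltaPOZ. Gene by gene they were split: of the 15, 7 stood above 0 and 8 below, with a median log2 fold change of -0.0086. Without overlap, 1 was higher and 5 were lower, against 19.9% and 19.1% of tested genes. Stroma markers (5 genes) summed to 191 and 182 CPM in B wt and 100.3 and 128 CPM in B deltaPOZ, and the B cell markers to 2335 and 1942 CPM and to 1571 and 1448 CPM. Plasma cell markers (4 genes) summed to 70.4 and 94.6 CPM in B wt and 65.8 and 50.7 CPM in B deltaPOZ. The proliferation, stroma, B cell and plasma cell sums were lower in deltaPOZ without overlap, as were Ada, Rrm2 and Dck and 19.1% of tested genes. The myeloid, erythroid, platelet, natural killer and T cell sums overlapped between the genotypes. The part of cell cycling or of cell makeup in the lower values was not tested.

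**Figure D5:**
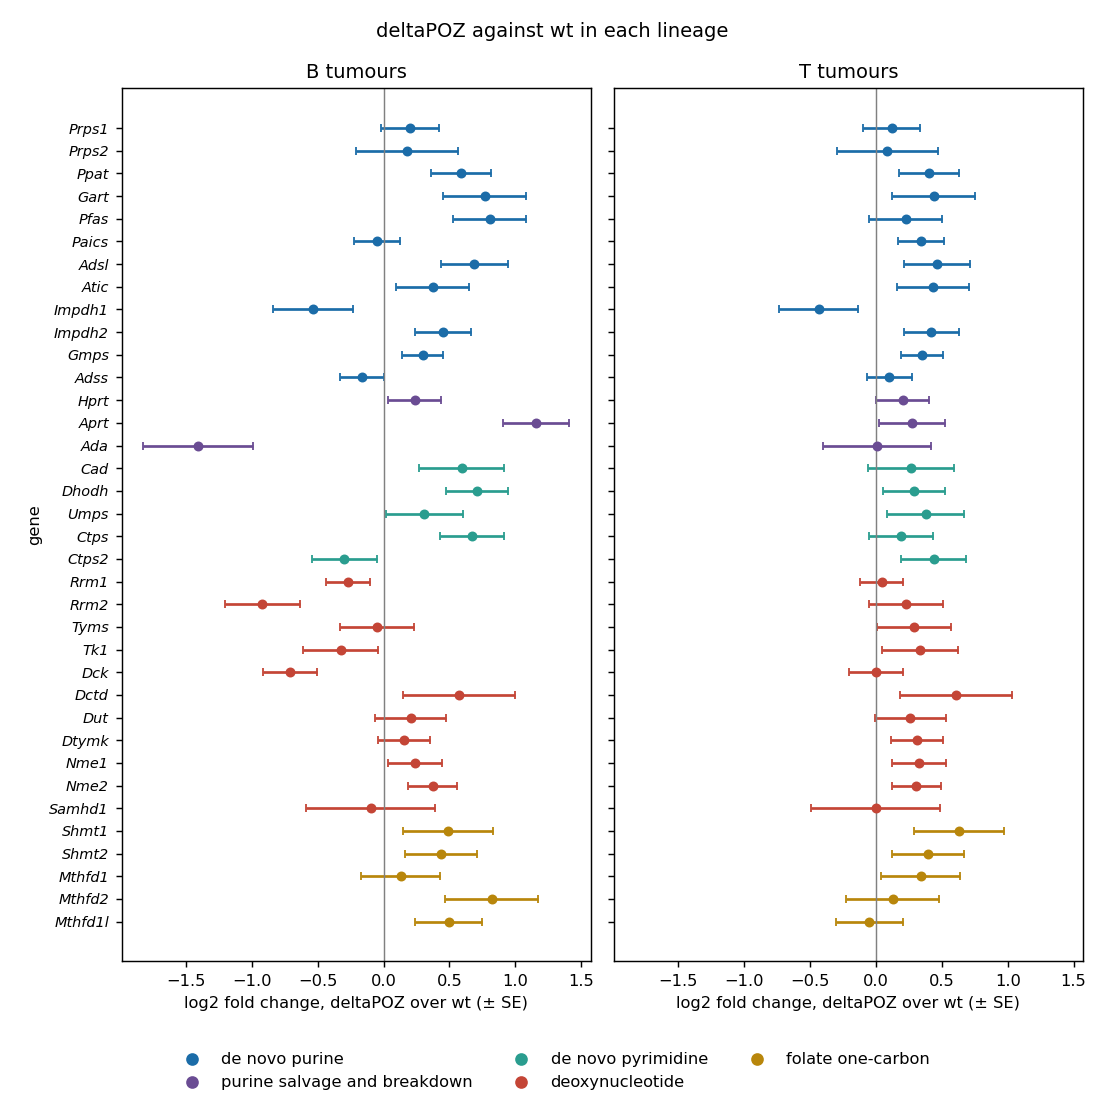
Log2 fold change of deltaPOZ over wt in B tumours (left) and T tumours (right) for each of the 36 genes, with its standard error as bars, coloured by role. In B tumours Ada, Rrm2 and Dck lie lowest at -1.41, -0.92 and -0.71 and Aprt highest at 1.16, while in T tumours all genes lie between -0.43 and 0.63.

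In T tumours most of the genes stood slightly higher in deltaPOZ, at log2 fold changes of -0.43 to 0.63, and none passed by edgeR (all adjusted p = 1), where 0% of tested genes did. None reached an unadjusted p under 0.05, against 2.65% of tested genes, and DESeq2 also called none, against 0.298%. The log2 fold change was above 0 for 32 of the 36, with a median of 0.29 against -0.0001 over all tested genes. Both deltaPOZ libraries lay above both wt libraries for 13 genes, against 15.4% of tested genes, and below both for none, against 17%. The 15 proliferation markers had a median log2 fold change of 0.21, with 9 above 0 and 6 below. Without overlap, 8 of these markers were higher in deltaPOZ and 3 lower. The part of cell cycling in the T values was not tested. T wt 1 was the lowest of the 4 T libraries for 29 of the 36 genes and T deltaPOZ 1 the highest for 22. Without T wt 1, 25 of the 36 were above 0 with a median of 0.15 (0.02 over all tested genes). Without T wt 2, 33 were above 0 with a median of 0.51 (0.06 over all tested genes).

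Gmps, Impdh2 and Paics had the smallest unadjusted p among the genes that stood higher in T deltaPOZ. Gmps was at 220.0 and 209 CPM against 249 and 297 CPM (log2 0.35 ± 0.16 SE), Impdh2 at 160.0 and 223 against 282 and 231 CPM (log2 0.42 ± 0.21 SE) and Paics at 258 and 326 against 351 and 388 CPM (log2 0.34 ± 0.18 SE). In all of these the wt and deltaPOZ libraries did not overlap, by margins smaller than the gap between the replicates in at least one genotype. On the lower side were Impdh1, with 110.3 and 155 against 125 and 71.5 CPM and an overlap (log2 -0.43 ± 0.30 SE), Mthfd1l (log2 -0.05 ± 0.25 SE) and Dck (log2 -0.0023 ± 0.20 SE), and the direction of the last pair turned under other settings. Ada and Rrm2, which stood lower in B deltaPOZ, gave log2 0.0052 ± 0.41 and 0.23 ± 0.28 SE in T.

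The difference of the deltaPOZ effect between T and B was tested directly. No member passed by edgeR (smallest adjusted p = 0.731), where 0% of tested genes did, and DESeq2 called none of the 36, against 1.38% of tested genes. At an unadjusted p under 0.05 there were 4, against 6.26% of tested genes: Rrm2 (T effect minus B effect, log2 1.15 ± 0.40 SE), Ada (1.41 ± 0.58 SE), Dck (0.71 ± 0.29 SE) and Aprt (-0.88 ± 0.35 SE). The effects in B and T are therefore not shown to differ for any of the 36 genes.

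Averaged over both lineages, none of the 36 passed by edgeR (smallest adjusted p = 0.424), where 0% of tested genes did, and 12 had an unadjusted p under 0.05, against 8.9% of tested genes. DESeq2 called 1, Aprt (log2 fold change 0.72, adjusted p = 0.0387), against 1.93% of tested genes. The median log2 fold change was 0.26, with 29 of 36 above 0. In both lineages, 7 genes stood higher in both deltaPOZ libraries than in both wt libraries, against 3.6% of tested genes: Ppat, Adsl, Impdh2 and Gmps of purine synthesis, Dhodh of pyrimidine synthesis, Nme2 and Shmt1. Their mean log2 fold changes were 0.50 ± 0.16 SE for Ppat, 0.58 ± 0.18 for Adsl, 0.44 ± 0.15 for Impdh2, 0.32 ± 0.11 for Gmps, 0.50 ± 0.17 for Dhodh, 0.34 ± 0.13 for Nme2 and 0.56 ± 0.24 for Shmt1. On the lower side the smallest p belonged to Dck (log2 -0.36 ± 0.14 SE), Ada (-0.70 ± 0.29 SE) and Impdh1 (-0.48 ± 0.21 SE), of which Impdh1 alone had a value well below 0 in both lineages (-0.53 in B and -0.43 in T).

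The E-box genes did not pass the test in B tumours either: log2 fold changes were 0.37 for Atic, 0.15 for Dtymk, 0.45 for Impdh2, 0.24 for Nme1, -0.049 for Paics and -0.048 for Tyms. Between lineages, Atic, Impdh2, Nme1 and Paics were called lower in T, and Dtymk and Tyms were not. Of all 36 genes 20 were called lower, and of all tested genes 16%. The part of the E-box in these calls was not tested. Myc itself gave log2 0.63 ± 0.28 SE in B deltaPOZ (adjusted p = 0.437, edgeR) and -0.21 ± 0.28 SE in T deltaPOZ (adjusted p = 1, edgeR).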

How the data were processed

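RNA of 8 spleen tumours was sequenced from TruSeq Stranded mRNA libraries, per the labels' protocols. The deposited values are raw read counts per Ensembl gene, made by the authors with TopHat2 2.0.10, SAMtools and HTSeq on mm10 (GRCm38), per the submitters' processing notes, which also name DESeq. Which annotation release and strand option were used for counting is not given in the sources used here. Of the reads that were counted to a gene, fell in no gene or were ambiguous, 30.4 to 39.3% fell in no gene and 0.471 to 0.554% were ambiguous. Both of these classes were left out of library sizes. Alignments that were not unique outnumbered the counted reads in every library. They were not counted to genes and are not part of these percentages.

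Symbols, positions and exon lengths came from GENCODE M21. Exon length is the merged length of all annotated exons of a gene, and the size of ratios per kilobase between genes depends on it. Counts were fitted with edgeR 4.0.16 (glmQLFit and glmQLFTest, R 4.3.3) as 4 group means over 8 libraries, with TMM normalization (factors 0.929 to 1.087) and filterByExpr, and 5 contrasts were adjusted by Benjamini-Hochberg over 16456 genes, with a threshold of 0.05. The standard error is the log2 fold change divided by the square root of F. CPM use TMM-scaled library sizes. DESeq2 1.42.0, limma-voom (limma 3.58.1), median-of-ratios factors, other filters, removal of 482 receptor segment genes, fits of each lineage alone and libraries left out were tried. With 2 libraries per group and 4 residual degrees of freedom, simulated counts for the B comparison over 16456 genes gave back 2% of the 2-fold, 66% of the 4-fold and 92% of the 8-fold increases and 52% of the 4-fold decreases, with 9 false calls. The members, the lists and the rule for genes given in full (the 3 smallest p per direction, and for T against B the 5 largest called folds per direction) were chosen with earlier results of these data known. Python 3.11.15 and matplotlib 3.10.9 were used for summaries and figures.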

Additional observations from a re-analysis of the deposited data

How the results depend on the processing

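No paired analysis was possible because the replicate numbers only follow the order of deposit and pair no mice. The number of the 36 genes called between genotypes in B was 0 by edgeR, 2 by DESeq2 and 5 without a low count filter. Over all tested genes the shares were 0.00608%, 4.18% and 4.79%. For the mean of both lineages the number was 0, 1 and 2. Over all tested genes it was 0% by edgeR, 1.93% by DESeq2 and 886 of 27639 genes without the filter. In T and for the difference of the effects the number of the 36 genes called was 0 under every alternative run. Between lineages it was 21, 2 with B wt 2, T wt 1 and T deltaPOZ 2 left out together (fewer samples), and 15 to 21 with 1 library left out. With all 8 libraries, the lineage count was 24 by DESeq2, where 6897 of 16456 tested genes were called. By edgeR it was 25 without a low count filter (6932 of 27639 genes) and 23 with at least 5 CPM in 2 libraries (4444 of 10810 genes). The median log2 fold change ranged over single libraries left out from 0.14 to 0.46 in B, 0.15 to 0.51 in T, 0.22 to 0.36 for the mean and -0.88 to -0.68 between lineages. For the difference of the effects it ranged from -0.15 to 0.24, a range that includes 0. With those 3 libraries left out the medians were -0.48 between lineages and -0.24 for the difference. Aside from the causes named, the cause was not tested. Among the genes given in full, Dck in T (between -0.11 and 0.091 with 1 library left out) turned to 0.020 with at least 5 CPM in 2 libraries, 0.0059 without B deltaPOZ 1, 0.0047 without B wt 2, 0.091 without T deltaPOZ 1 and 0.041 without T wt 2. Mthfd1l in T (between -0.40 and 0.23 with 1 library left out) turned to 0.42 with the 3 libraries left out, 0.23 without T deltaPOZ 2 and 0.17 without T wt 1. With 3 libraries left out Dctd, Nme2, Samhd1 and Shmt1 also lost their lineage calls. Every gene of the 36 had 686 reads or more in every library.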

Other observations

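Around the 36 genes, 71 further genes of the same pathways were listed and 65 were tested. By edgeR none was called between genotypes in B or in T. In B, 11 had an unadjusted p under 0.05, against 12.1% of all tested genes, and DESeq2 called 2, against 4.18%. In T, 2 had an unadjusted p under 0.05, against 2.65%, and DESeq2 called 0, against 0.298%. Between lineages 9 were called higher in T, against 19.3% of all tested genes, and 18 lower, against 16%. Ampd1, an AMP deaminase known from muscle, ranged from 0.0199 to 0.111 CPM in B tumours and 16.7 to 27.02 CPM in T tumours (adjusted p = 0.000212, edgeR), so that its B values lie around the level of 3 counts and no fold is given. Ampd3, the erythrocyte-type AMP deaminase, ranged from 2.28 to 11.01 CPM in B and 19.02 to 39.1 CPM in T (log2 2.19 ± 0.37 SE, adjusted p = 0.00559, edgeR), and its highest T library was T wt 2, which also had the highest erythroid marker sum. Dctpp1, which hydrolyses dCTP, was lower in T (log2 -1.61 ± 0.19 SE, adjusted p = 0.00189, edgeR), as was the equilibrative nucleoside transporter Slc29a2 (log2 -2.27 ± 0.33 SE, adjusted p = 0.0037, edgeR).

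Of the serine, glycine and folate supply genes, 7 of 15 were called lower in T and none higher, against the same 16% and 19.3% of all tested genes, with a median log2 fold change of -0.65 against 0.05. The other groups were mixed. Purine interconversion, salvage and breakdown had 3 of 22 higher and 5 lower in T (median -0.48). Pyrimidine salvage and breakdown had 3 of 12 higher and 2 lower (median 0.41). Of the further deoxynucleotide genes, none of 12 was higher and 3 were lower (median -0.022). Nucleoside transport had 3 of 4 higher and 1 lower (median 0.56).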
